A study of Mus musculus with 18 samples.

Results

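The genes described here are the ATF4 gene itself and 8 genes known as targets or outputs of the integrated stress response, namely Ddit3, Trib3, Asns, Chac1, Psat1, Phgdh, Sesn2 and Gdf15. They were taken by name, and all 9 were found among the 43430 gene identifiers of the count table and passed the filter on low counts, which 13596 genes passed. Sequencing covered myofibers of the quadriceps muscle of 18 C57BL/6 mice (C57BL/6J in the study's methods), 3 males and 3 females for each of 3 treatments. Mice were 10 weeks old when treatment began and were treated for 4 weeks. Vehicle mice received DMSO by injection every day, daily prednisone mice received 1 mg/kg prednisone every day, and weekly prednisone mice received 1 mg/kg once a week with vehicle injections between. Weekly mice were harvested 2 days after their last prednisone injection, so weekly and daily groups differed in the time since the last dose as well as in its frequency. Prednisone is a glucocorticoid, a steroid that acts through the glucocorticoid receptor. The fibers were what a strainer held back after collagenase digestion, so cells attached to them could be included.

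In the integrated stress response, kinases that sense amino acid lack, misfolded protein in the endoplasmic reticulum, viral RNA or heme shortage phosphorylate the translation factor eIF2. Most translation then slows, while the ATF4 mRNA is translated more, so much of the control of ATF4 lies after transcription and the mRNA level measured here is not the protein level. ATF4 induces enzymes of amino acid synthesis, amino acid transporters, tRNA synthetases and other stress factors. In skeletal muscle the pathway is known for its responses to fasting, mitochondrial defects and disuse.

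Promoter sequences are shown for the 3 members whose RefSeq promoter held the C/EBP-ATF response element, through which ATF4 binds with a C/EBP partner, and for Phgdh, the member with the largest change, which held none. The element was searched as TGATGNAA on both strands from 250 bases before to 50 bases after each annotated start, and it was found in 3 of the 9 members against 4.51% of 27025 mouse genes with such a window. Capitals mark the match, each sequence runs 5′ to 3′ on the strand of the gene, and the build is GRCm38.p6.
Trib3, 30 bases just after the start at chr2:152344028-152344057, minus strand: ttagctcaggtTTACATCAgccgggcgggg
Asns, 30 bases just before the start at chr6:7693214-7693243, minus strand: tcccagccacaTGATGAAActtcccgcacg
Chac1, 105 bases before the start at chr2:119350992-119351096, plus strand: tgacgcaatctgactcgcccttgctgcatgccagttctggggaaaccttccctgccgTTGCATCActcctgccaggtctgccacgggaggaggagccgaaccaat
Phgdh, 120 bases before the start at chr3:98339991-98340110, minus strand: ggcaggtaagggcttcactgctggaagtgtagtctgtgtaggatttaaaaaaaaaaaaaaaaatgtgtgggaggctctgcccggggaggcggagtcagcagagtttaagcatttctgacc

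The stretches of Chac1 and Phgdh did not reach the annotated start, and relative to it they ran from -250 to -146 and from -141 to -22. The match in Trib3 lay on the opposite strand to the gene, 15 to 22 bases after the start. That in Chac1 also lay on the opposite strand, from -193 to -186. The match in Asns began 23 bases before the start on the strand of the gene. The other 6 members held no match in this window, Psat1 and Gdf15 with a pair of annotated starts each. A glucocorticoid response element, searched as ACANNNTGT, was found in 0 of the 9 members against 7.9% of the 27025 genes. A match of letters is a description of sequence and not evidence of binding.

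Total counts per library ran from 10506661 to 14686654, and levels below are CPM, counts scaled to a common library size. Labelled skeletal muscle genes such as Myh4 and Ttn were abundant in every library, the 10 muscle markers summing to between 138000 and 248000 CPM. Markers of fat cells, although low beside these, differed between groups. The summed level of 10 adipocyte markers ran from 606 to 932 CPM in vehicle males, 941 to 1580 in weekly males and 1160 to 2210 in daily males. It ran from 961 to 1250 CPM in vehicle females, 1170 to 6330 in weekly females and 1830 to 4150 in daily females. No adipocyte marker was at 0 in a whole group. In the bulk RNA, more cells of a type and more RNA per cell cannot be told apart. Female weekly replicate 1 and female daily replicate 1 stood apart in another way, with the lowest summed levels of 10 immediate early genes such as Fos, at 1000 and 2270 CPM against 2770 to 8740 in the other libraries.

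The members differed widely in level. Averaged over the 18 libraries and expressed per kilobase of gene model, Atf4 was highest at 135 ± 21 CPM per kb (SD, n = 18), followed by Chac1 at 46.9 ± 20.2, Ddit3 at 8.9 ± 3.89 and Phgdh at 1.56 ± 0.952. Sesn2 at 1.45 ± 0.595, Gdf15 at 0.902 ± 0.606, Asns at 0.704 ± 0.417, Trib3 at 0.451 ± 0.197 and Psat1 at 0.349 ± 0.153 CPM per kb completed the order, and from Phgdh down each level lay within 1 SD of the next. Atf4 was also the steadiest, its highest library being 1.68 times its lowest. Gdf15 varied most, with a highest library 29.8 times its lowest.

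**Figure D1:**
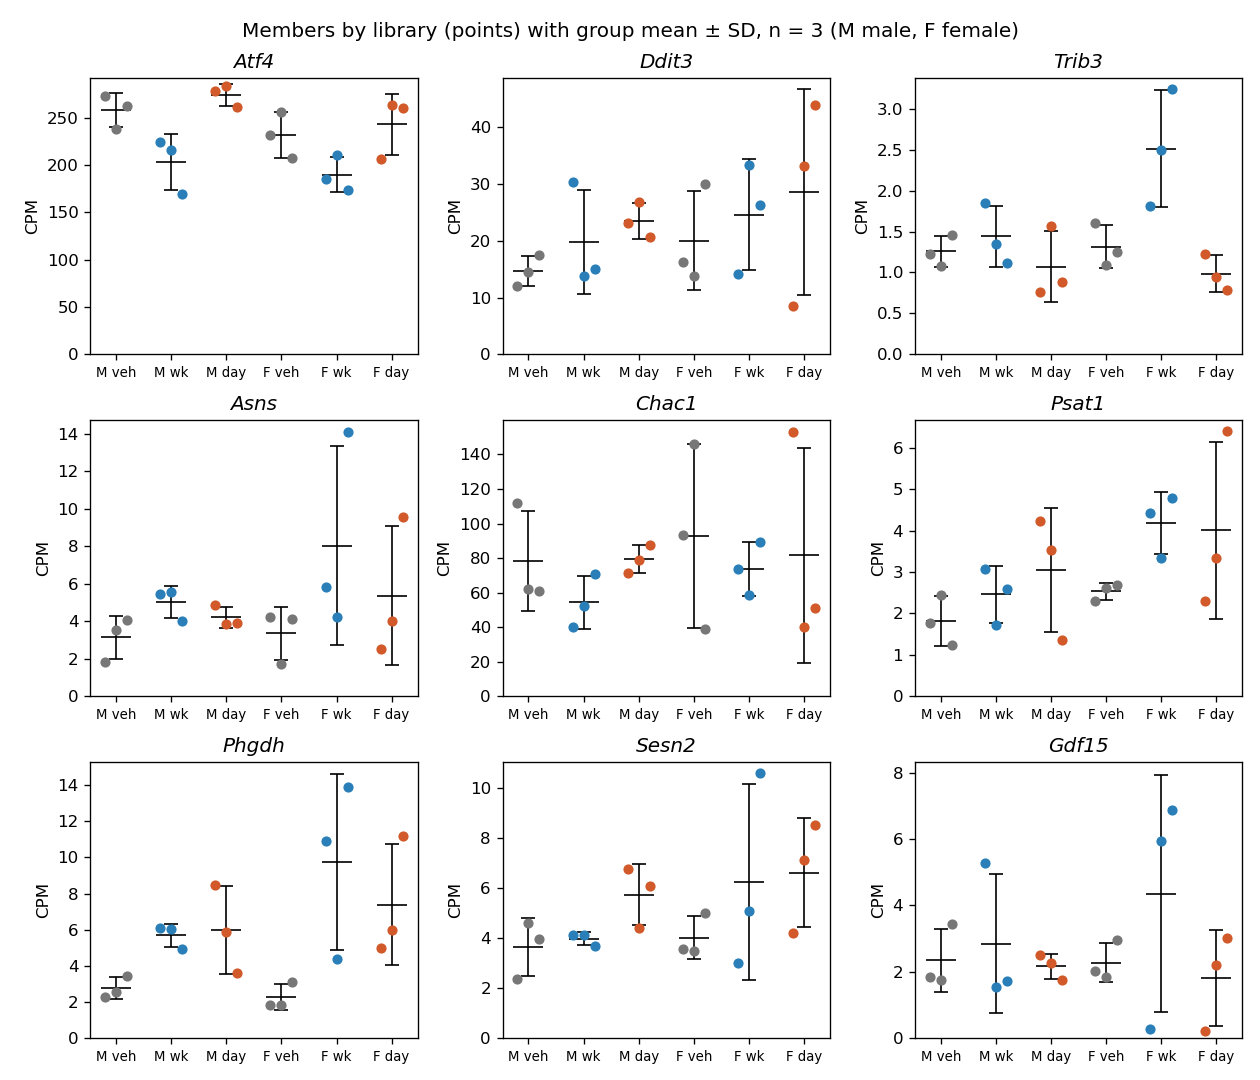
Level of each member in CPM (y axis, linear from 0) in the 3 libraries of each group, with gray, blue and orange points for vehicle, weekly and daily prednisone, and a bar and whiskers for the mean ± SD. Phgdh is higher in every treated library than in every vehicle library of the same sex, Atf4 is lowest in the weekly groups and Trib3 is highest in weekly females.

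Over both sexes, daily prednisone raised 1 of the 9 members against vehicle, Phgdh, by the edgeR quasi-likelihood test at an adjusted p under 0.05, while 15% of all genes tested were called. Weekly prednisone changed 0 of 9 against vehicle, as it did 0% of all genes. Between the regimens 2 of 9 differed, with Atf4 higher and Trib3 lower in daily than in weekly mice, against 8.17% of all genes. Of the 9 members, 6 were higher and 3 lower in daily than in vehicle mice, with a median log2 fold change of 0.55 against 0.02 over all genes, and 7 were higher and 2 lower in weekly mice, again with a median of 0.55 against 0.02. These comparisons share the vehicle libraries. Between the regimens the median was 0.13 against -0.02 over all genes, with 5 members higher and 4 lower in daily mice, from Trib3 at -0.87 to Atf4 at 0.40.

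**Figure D2:**
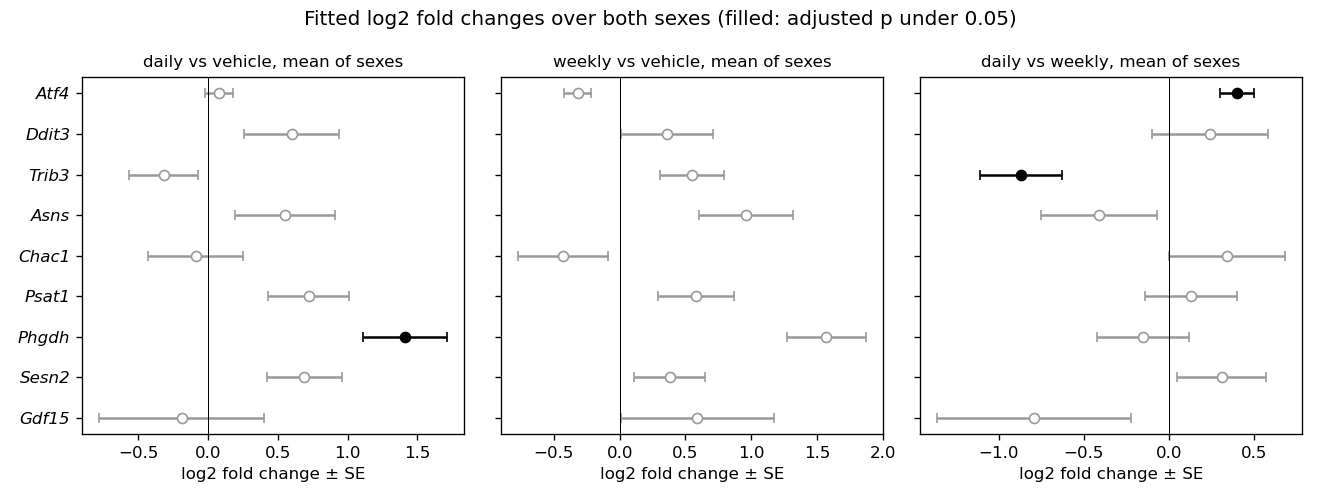
Fitted log2 fold change ± SE (x axis) of each member over both sexes in the 3 comparisons, filled points marking an adjusted p under 0.05. The filled points are Phgdh at 1.41 for daily against vehicle, and Atf4 at 0.40 and Trib3 at -0.87 for daily against weekly.

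Phgdh encodes the enzyme of the first committed step of serine synthesis from glycolysis. In males its level was 2.28, 2.55 and 3.44 CPM with vehicle, 6.07, 6.05 and 4.95 with weekly prednisone, and 8.48, 5.85 and 3.62 with daily prednisone. In females it was 1.86, 1.85 and 3.13 CPM with vehicle, 10.9, 4.4 and 13.9 with weekly prednisone, and 4.99, 5.98 and 11.2 with daily prednisone. Every treated library lay above every vehicle library of its sex, whichever the regimen. Over all genes, such a complete separation upward was found for 16.4% in daily males, 12.9% in daily females, 7.76% in weekly males and 4.94% in weekly females.

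Daily against vehicle, Phgdh averaged 6.69 against 2.52 CPM, a log2 fold change of 1.41 ± 0.30 (SE) with an edgeR adjusted p of 0.00567. Weekly against vehicle, it averaged 7.71 against 2.52 CPM, a log2 fold change of 1.57 ± 0.30 with an edgeR adjusted p of 0.134. The weekly estimate was thus no smaller than the daily one, and it ranked 3 among all genes by p-value, but no gene passed the correction in that comparison. DESeq2 called it, at an adjusted p of 0.000136, among 183 genes called. So did edgeR without female weekly replicate 2, the weekly female with the least Phgdh and the lowest adipocyte sum, at 1.73 and an adjusted p of 0.00692. Daily and weekly mice differed in Phgdh by -0.15 ± 0.27 on the log2 scale, with a 95% interval of -0.69 to 0.38.

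Within sexes edgeR did not call Phgdh with all libraries in the fit. The log2 fold change was 1.13 ± 0.42 in daily males (edgeR adjusted p = 0.119) and 1.69 ± 0.43 in daily females (0.0757), where 6.46% and 0.382% of all genes were called. It was 1.05 ± 0.43 in weekly males (edgeR adjusted p = 0.849) and 2.09 ± 0.43 in weekly females (0.247), where 0% of genes were called in either sex. DESeq2 called it in daily females (adjusted p = 0.00825) and weekly females (0.00221), and edgeR called it in weekly females without replicate 2, at 2.40 (adjusted p = 0.00766), and in daily females without both replicates 1 of the treated females, at 1.90 (0.035). More genes of all kinds were called in these fits. DESeq2 called 530 in daily and 152 in weekly females, and edgeR 253 in weekly and 642 in daily females. The weekly response of Phgdh was 1.05 ± 0.60 larger in females than in males on the log2 scale, and this difference between the sexes was not called (edgeR adjusted p = 1).

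Phgdh moved with the adipocyte markers. Over the 18 libraries its log2 CPM correlated with the mean log2 CPM of the 10 markers at Pearson r = 0.91 (permutation p = 0.00331, adjusted over the 9 members 0.0149) and Spearman rho = 0.88 (permutation p = 0.0182, adjusted 0.0818), with labels permuted within groups. Without the 2 libraries farthest from the median score, r was 0.86. On deviations from group means r was again 0.86 (permutation p = 0.00331, adjusted 0.0182), so the relation was present among mice of the same sex and treatment. With the marker score as a covariate, the log2 fold change of Phgdh was 0.23 (edgeR adjusted p = 0.727) for daily and 0.46 (0.898) for weekly against vehicle. The score itself moved with treatment, so the effects of fat cell content and treatment cannot be told apart. The genes most like Phgdh across the 18 libraries were Dram1 (r = 0.967), Ifi27l2a (r = 0.951) and Mrap (r = 0.935), the last a melanocortin receptor accessory protein known from adrenal and fat cells. They were sought among 12573 other tested genes, leaving out genes without a symbol or with a Gm, Rik or pseudogene symbol.

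**Figure D3:**
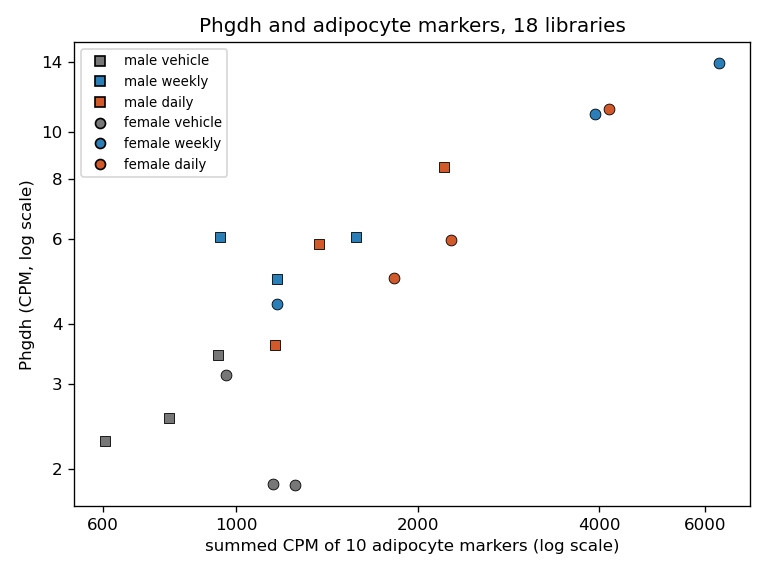
Phgdh (y axis, CPM, log scale) against the summed level of 10 adipocyte markers (x axis, CPM, log scale) in the 18 libraries, squares for males and circles for females, colored by treatment. The 3 libraries above 10 CPM of Phgdh, 2 weekly and 1 daily female, are those with adipocyte sums of 3940, 6330 and 4150 CPM.

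Psat1 encodes the next enzyme of the serine pathway, and Asns makes asparagine from aspartate. Psat1 was 1.76, 2.45 and 1.25 CPM in vehicle males, 3.08, 1.73 and 2.58 in weekly males and 4.24, 3.52 and 1.37 in daily males. Female libraries were at 2.29, 2.61 and 2.69 CPM with vehicle, 4.42, 3.35 and 4.78 with weekly prednisone, and 2.3, 3.33 and 6.4 with daily prednisone. Weekly females lay above vehicle females in every library, as was found for 4.94% of all genes, whereas the other groups overlapped. Over both sexes its log2 fold change was 0.72 ± 0.29 for daily (edgeR adjusted p = 0.104) and 0.58 ± 0.29 for weekly prednisone (0.479).

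Asns was 1.84, 3.53 and 4.06 CPM in vehicle males, 5.45, 5.57 and 4.04 in weekly males and 4.87, 3.84 and 3.92 in daily males. In females it was 4.23, 1.74 and 4.12 CPM with vehicle, 5.83, 4.21 and 14.1 with weekly prednisone, and 2.53, 4.03 and 9.55 with daily prednisone. Single libraries, both replicates 3, held the high female values, and all groups overlapped. The log2 fold change over both sexes was 0.55 ± 0.36 for daily (edgeR adjusted p = 0.338) and 0.96 ± 0.36 for weekly prednisone (0.335). With the adipocyte score as a covariate these became -0.73 and -0.24, and those of Psat1 became -0.01 and -0.05.

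Asns correlated with the adipocyte score at r = 0.77 (permutation p = 0.00162, adjusted over the 9 members 0.0146), at rho = 0.60 (permutation p = 0.00684, adjusted 0.0616), and at r = 0.75 on deviations from group means (permutation p = 0.00404, adjusted 0.0182). Without the 2 libraries farthest from the median score its r was 0.53. Asns and Phgdh correlated with each other at r = 0.79 (permutation p = 0.00033, adjusted over 36 pairs of members 0.0119) and rho = 0.73 (permutation p = 0.00075, adjusted 0.0135), with r = 0.66 without the 2 farthest libraries. On deviations from group means r was 0.76, with a permutation p of 0.00642 that did not pass the correction (adjusted 0.0844). The score's part in this relation was not tested.

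Atf4, which encodes the transcription factor at the center of the response, was lowest in weekly mice of both sexes. In males it was 273, 238 and 262 CPM with vehicle, 224, 216 and 169 with weekly prednisone, and 278, 283 and 261 with daily prednisone. Female libraries were at 232, 256 and 207 CPM with vehicle, 185, 210 and 174 with weekly prednisone, and 206, 263 and 260 with daily prednisone. Weekly males lay below vehicle and daily males in every library, and the female groups overlapped by the lowest vehicle and daily libraries. Over all genes, 8.97% lay below in every library for weekly against vehicle males, and 11.9% lay above for daily against weekly males. Daily against weekly, Atf4 averaged 259 against 196 CPM, a log2 fold change of 0.40 ± 0.10 (edgeR adjusted p = 0.0274).

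The same difference was 0.44 ± 0.14 in males (edgeR adjusted p = 0.213) and 0.36 ± 0.14 in females (0.208), where 0% of genes were called in either sex. With daily and weekly females paired by replicate number, a choice made after the data were seen, 522 genes were called in females. Atf4 was not among them. Weekly against vehicle, Atf4 was lower by a fitted -0.32 ± 0.10 over both sexes (edgeR adjusted p = 0.263), with -0.35 ± 0.14 in males and -0.29 ± 0.14 in females. Daily against vehicle, it differed by 0.08 ± 0.10 (edgeR adjusted p = 0.658), with a 95% interval of -0.12 to 0.28. The daily against weekly call held with the adipocyte score as a covariate, at 0.40 (edgeR adjusted p = 0.0328). It was lost when only the daily and weekly libraries were fitted, at 0.36. It was also lost without male weekly replicate 3, male daily replicate 1 or 2, female weekly replicate 3, or female daily replicate 2 or 3, the fold change staying between 0.35 and 0.46 over all 12 libraries left out in turn. Muscle genes also differed in this comparison. Of 10 muscle markers, 4 were higher and 6 lower in daily mice, with a median log2 fold change of -0.06, and 3 (Myh4, Ttn and Atp2a1) were called higher. In daily mice their sums ran from 156000 to 239000 CPM against 138000 to 190000 in weekly mice, and their part in the Atf4 result was not tested.

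Trib3 encodes a pseudokinase that is induced by ATF4 and DDIT3 and is known to bind AKT. It was 1.23, 1.08 and 1.46 CPM in vehicle males, 1.85, 1.35 and 1.12 in weekly males and 0.765, 1.57 and 0.881 in daily males. In females it was 1.61, 1.09 and 1.25 CPM with vehicle, 1.81, 2.49 and 3.24 with weekly prednisone, and 1.23, 0.944 and 0.785 with daily prednisone. All weekly females lay above all vehicle and daily females, and the male groups overlapped. Such separation was found for 4.94% of all genes upward in weekly against vehicle females and for 7.34% downward in daily against weekly females. These are low counts, from 9 to 42 reads per library.

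Daily against weekly over both sexes, Trib3 averaged 1.03 against 1.97 CPM, a log2 fold change of -0.87 ± 0.24 (edgeR adjusted p = 0.0356). In females alone it was -1.35 ± 0.33 (edgeR adjusted p = 0.0711). A pairing of daily and weekly females by replicate number gave -1.33 and an edgeR adjusted p of 0.0432, among 522 genes called. The labels name no such pairs, and the pairing was chosen after these libraries were seen to deviate together. Leaving out female weekly replicate 1 gave -1.54 and an edgeR adjusted p of 0.0403. Weekly against vehicle, the log2 fold change was 0.91 ± 0.33 in females (edgeR adjusted p = 0.441) and 0.55 ± 0.24 over both sexes (0.411). Daily against vehicle, it was -0.32 ± 0.25 (edgeR adjusted p = 0.438). The weekly response was 0.73 ± 0.48 larger in females than in males on the log2 scale, which was not called (edgeR adjusted p = 1).

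The call for Trib3 over both sexes held with the adipocyte score as a covariate, at -0.86 (edgeR adjusted p = 0.0413). It was lost in 8 of the 12 fits that left out 1 library, namely those without male weekly replicate 1 or 2, male daily replicate 1 or 3, female weekly replicate 2 or 3, or female daily replicate 2 or 3, with fold changes between -1.07 and -0.74 over the 12. It was also lost with no filter (edgeR adjusted p = 0.073), when only the daily and weekly libraries were fitted (0.0731) and with the replicate block over all groups (0.0517). The summed level of 10 macrophage markers was also highest in weekly females, from 94 to 129 CPM against 39 to 81.5 in the other 5 groups. Of the 10 markers, 9 were above 1 CPM in every group. Daily against weekly over both sexes, 3 of the 9 tested markers were higher and 6 lower, with 1 called in each direction. The part of macrophages in the Trib3 result was not tested. The genes most like Trib3 over the 18 libraries were Ctsz (r = 0.839), Sh3gl1 (r = 0.818) and Alg5 (r = 0.817), Ctsz being a lysosomal cathepsin.

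Ddit3 encodes CHOP, a C/EBP family factor that ATF4 induces. It was 12.1, 14.5 and 17.5 CPM in vehicle males, 30.3, 13.8 and 15.1 in weekly males and 23.1, 26.8 and 20.6 in daily males. Female libraries were at 16.3, 13.8 and 30.1 CPM with vehicle, 14.1, 33.4 and 26.4 with weekly prednisone, and 8.6, 33.2 and 44 with daily prednisone. Daily males lay above vehicle males in every library, as was found for 16.4% of all genes. Daily females held both the lowest and the highest libraries of all 18. The log2 fold change over both sexes was 0.60 ± 0.34 for daily (edgeR adjusted p = 0.273) and 0.36 ± 0.35 for weekly prednisone (0.742). In daily males it was 0.68 ± 0.49 (edgeR adjusted p = 0.438), and it was called, at the same 0.68 with an adjusted p of 0.0312, only when daily and vehicle males were fitted alone. That fit called 1530 of all genes, against 878 with every library fitted. Ddit3 overlaps Mars, the methionyl-tRNA synthetase gene on the opposite strand, and the strand setting of the counting was not stated, so reads of the pair cannot be told apart with certainty.

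Sesn2 encodes sestrin 2, a stress protein that restrains mTORC1 when leucine is low. It was 2.37, 4.61 and 3.96 CPM in vehicle males, 4.13, 4.13 and 3.69 in weekly males and 6.74, 4.4 and 6.07 in daily males. In females it was 3.56, 3.48 and 5.02 CPM with vehicle, 3.02, 5.07 and 10.6 with weekly prednisone, and 4.22, 7.11 and 8.52 with daily prednisone. Daily males lay above weekly males in every library, as was found for 11.9% of all genes. The daily groups overlapped vehicle groups by their lowest library. The log2 fold change over both sexes was 0.69 ± 0.27 for daily (edgeR adjusted p = 0.0979) and 0.38 ± 0.27 for weekly prednisone (0.643).

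A single library bore on several daily calls. Without female daily replicate 1, 4 members passed over both sexes for daily against vehicle: Phgdh at 1.52 (edgeR adjusted p = 0.00405), Ddit3 at 0.81 (0.0463), Psat1 at 0.85 (0.0433) and Sesn2 at 0.80 (0.0488). With female weekly replicate 1 left out as well, the same 4 passed at 1.52, 0.81, 0.86 and 0.80 (edgeR adjusted p = 0.00359, 0.0229, 0.0394 and 0.0139). The calls over all genes rose too, to 3077 in that fit against 2033 with every library. The libraries left out are the lowest in immediate early genes within their groups, and they were left out after their values had been seen. Female daily replicate 1 also had the lowest adipocyte sum of the daily females, 1830 CPM against 2270 and 4150. With the adipocyte score as a covariate and every library fitted, the daily log2 fold changes were 0.23 for Phgdh, 0.55 for Ddit3, -0.01 for Psat1 and 0.01 for Sesn2. The part of the score in these calls was not tested. Psat1 also passed without male daily replicate 3, at 0.90 (edgeR adjusted p = 0.0355).

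Gdf15 encodes a secreted TGF-β family protein that acts on the hindbrain to lower appetite and is known as a marker of mitochondrial and other stress. It was 1.84, 1.77 and 3.44 CPM in vehicle males, 5.28, 1.54 and 1.74 in weekly males and 2.5, 2.26 and 1.76 in daily males. Female libraries were at 2.03, 1.85 and 2.96 CPM with vehicle, 0.268, 5.93 and 6.86 with weekly prednisone, and 0.23, 2.2 and 3.02 with daily prednisone. The lowest values were those of female weekly replicate 1 and female daily replicate 1, which held 4 and 3 reads of Gdf15, against 16 to 89 reads in the other libraries. Groups overlapped throughout. The log2 fold change over both sexes was -0.19 ± 0.59 for daily (edgeR adjusted p = 0.868) and 0.59 ± 0.58 for weekly prednisone (0.741).

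Chac1 encodes a γ-glutamylcyclotransferase that breaks down glutathione and is a known target of the ATF4 pathway. It was 112, 62.4 and 61 CPM in vehicle males, 40.2, 52.1 and 70.9 in weekly males and 71.4, 78.8 and 87.7 in daily males. In females it was 93.3, 146 and 39.1 CPM with vehicle, 73.5, 58.5 and 89.6 with weekly prednisone, and 153, 40.3 and 51.3 with daily prednisone. Its highest library was female daily replicate 1, the library lowest in Ddit3 and Gdf15. Daily males lay just above weekly males in every library, as was found for 11.9% of all genes, and all other groups overlapped. The log2 fold change over both sexes was -0.09 ± 0.34 for daily (edgeR adjusted p = 0.903) and -0.43 ± 0.34 for weekly prednisone (0.678), with 0.34 ± 0.34 for daily against weekly (0.597).

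The members were also compared with each other across libraries. Of their 36 pairs, 1 was called on deviations from group means and 2 on the undivided 18 libraries. The median r over the pairs was 0.17 on deviations and 0.15 undivided, and 24 of 36 pairs were positive on deviations. Ddit3 and Gdf15 were the pair called both ways, at r = 0.86 on deviations (permutation p = 0.0007, adjusted 0.0252), with r = 0.71 (permutation p = 0.0007, adjusted 0.0126) and rho = 0.77 (permutation p = 0.0006, adjusted 0.0135) undivided. Both tests shuffled libraries only within groups, so they are not separate tests and neither tests differences between group means. Without the 2 libraries farthest in Ddit3, r was 0.82 on deviations and 0.64 undivided, and without both replicates 1 of the treated females it was 0.85 and 0.62. Ddit3 and Chac1 ran opposite, at r = -0.81 on deviations with a permutation p of 0.00703 (adjusted 0.0844), and at -0.78 without those same replicates. Atf4 itself correlated with no member past the correction, its r on deviations running from -0.26 with Chac1 to 0.43 with Ddit3.

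The genes most like Ddit3 over the 18 libraries were Ccnd2 (r = 0.944), Nfkb2 (r = 0.926) and Ccnl1 (r = 0.917), and those most like Gdf15 were Actb (r = 0.952), Dusp5 (r = 0.939) and Fam43a (r = 0.936). For Sesn2 they were Ptp4a1 (r = 0.894), Etv3 (r = 0.892) and Zfp655 (r = 0.885). Asns was most like Ntrk2 (r = 0.923), Ahcyl1 (r = 0.909) and Klb (r = 0.907), and Atf4 most like Xrra1 (r = 0.824), Fam53c (r = 0.785) and Prickle3 (r = 0.777). Chac1 was most like Mettl17 (r = 0.851), Trappc13 (r = 0.834) and Mta1 (r = 0.823), and Psat1 most like Rnf4 (r = 0.835), Cadps2 (r = 0.819) and Pfkl (r = 0.818). All these values share the libraries and their normalization and carry no test.

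**Figure D4:**
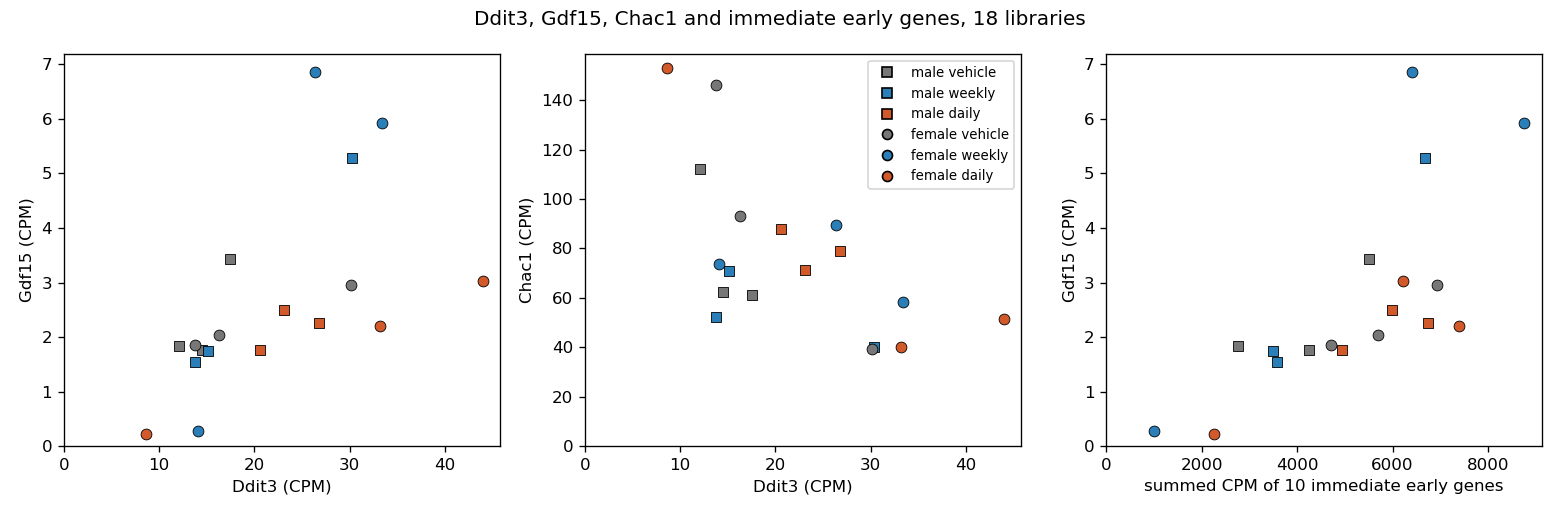
Gdf15 against Ddit3, Chac1 against Ddit3, and Gdf15 against the summed level of 10 immediate early genes (all axes in CPM, linear from 0) in the 18 libraries, squares for males and circles for females, colored by treatment. The circles nearest 0 of Gdf15, at 0.268 and 0.23 CPM, are the libraries with immediate early sums of 1000 and 2270 CPM.

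The sexes were also compared directly. With vehicle, 0 of the 9 members differed between females and males, where 0.765% of all genes were called. For the daily response and for the weekly response, 0 of 9 differed between the sexes, and 0% of all genes were called in each, with 638 and 357 genes at an unadjusted p under 0.05 and 2 and 0 genes called by DESeq2. Within sexes, 0 of 9 members were called in daily males, daily females, weekly males and weekly females against vehicle, or between regimens in either sex. For the comparisons in which edgeR called 0 genes, 777 genes in weekly males, 1083 in weekly females, 1492 in weekly mice of both sexes, 1829 in daily against weekly males and 2401 in daily against weekly females had an unadjusted p under 0.05. DESeq2 called 1, 152, 183, 225 and 546 genes in these same comparisons.

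Other parts of the pathway were read from lists of its genes, of which 88 were tested. Daily prednisone changed 10 of the 88 against vehicle over both sexes, or 11.4%, beside 15% of all genes. Between daily and weekly mice 7 of the 88 differed, or 7.95%, beside 8.17% of all genes. Among 14 genes of the eIF2 kinases, the phosphatase subunits that reverse them, eIF2 and its exchange factor eIF2B, 1 rose and 0 fell with daily prednisone over both sexes. The gene that rose was Eif2ak2, which encodes the kinase PKR that senses double-stranded RNA, at 6.83 against 3.93 CPM (log2 fold change 0.79 ± 0.23, edgeR adjusted p = 0.0302). Its highest daily female library reached 11.1 CPM and its highest vehicle female library 6.45. It was no longer called when male vehicle replicate 1 or 2, male daily replicate 2, female vehicle replicate 1 or 2, or female daily replicate 2 was left out, the fold change staying between 0.61 and 1.02. With weekly prednisone 0 of 14 passed, the smallest p being that of Eif2b5, a catalytic subunit gene of eIF2B, at -0.24 ± 0.11 (edgeR adjusted p = 0.402).

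Of 12 further genes of serine, one-carbon and other amino acid synthesis, 1 rose and 1 fell with daily prednisone, where 15% of all genes were called. Aldh1l2, a mitochondrial enzyme of folate one-carbon metabolism, rose from 4.27 to 6.93 CPM (log2 fold change 0.68 ± 0.18, edgeR adjusted p = 0.0181). In females every daily library, from 6.89 to 8.06 CPM, lay above every vehicle library, from 3.15 to 5.67, as was found for 12.9% of all genes. In males the daily range of 5.01 to 8.71 CPM overlapped the vehicle range of 2.92 to 5.2. It was also higher in daily than in weekly mice, by 0.78 ± 0.18 (edgeR adjusted p = 0.0176), and this held in all 23 alternative fits. Pycr1, the last enzyme of proline synthesis, fell by 0.44 on the log2 scale (SE 0.14, edgeR adjusted p = 0.0448), a call lost when any of 10 of the 12 libraries was left out, the exceptions being female vehicle replicate 1 and, for daily females, replicate 1. That call was also lost with no filter (edgeR adjusted p = 0.132), with the compared groups alone (0.0656), with the replicate block (0.0542) and with the adipocyte score as a covariate (0.596). With weekly prednisone 0 of 12 passed, the smallest p again being that of Pycr1, at -0.33 ± 0.14 (edgeR adjusted p = 0.39).

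Of 9 amino acid transporter genes, 7 were tested, and 2 rose with daily prednisone, where 15% of all genes were called. Slc38a2, a sodium-coupled neutral amino acid transporter that takes up glutamine and alanine, rose from 117 to 222 CPM (log2 fold change 0.90 ± 0.14, edgeR adjusted p = 0.00118). Daily males ran from 273 to 297 CPM and vehicle males from 137 to 154, while daily females ran from 129 to 194 CPM and vehicle females from 59.6 to 106. The groups of each sex did not overlap, a separation upward that was found for 16.4% of all genes in males and 12.9% in females. Weekly mice stayed near vehicle, from 143 to 168 CPM in males and 75.3 to 106 in females. Daily against weekly, Slc38a2 was higher by 0.86 ± 0.14 (edgeR adjusted p = 0.00615).

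Slc1a5, a transporter of glutamine and other neutral amino acids, rose with daily prednisone from 31.5 to 95.3 CPM (log2 fold change 1.51 ± 0.40, edgeR adjusted p = 0.0209). With weekly prednisone it was 104 against 31.5 CPM, which did not pass (log2 fold change 1.57 ± 0.40, edgeR adjusted p = 0.196). As with Phgdh, its highest libraries were females, reaching 273 CPM with weekly and 250 CPM with daily prednisone against at most 41.6 with vehicle. With the adipocyte score as a covariate its daily log2 fold change was -0.24 (edgeR adjusted p = 0.715), whereas that of Slc38a2 was 0.74 (0.13). The Slc1a5 call was also lost with no filter and when male vehicle replicate 1, male daily replicate 1, female vehicle replicate 2 or female daily replicate 3 was left out, the fold change staying between 1.07 and 1.68.

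Among 20 cytosolic tRNA synthetase genes, which charge tRNAs with amino acids, 0 passed with daily or weekly prednisone against vehicle. In weekly mice all 20 had a fitted level below vehicle, with a median log2 fold change of -0.16 and a range of -0.26 to -0.03, against a median of 0.02 over all genes. In the same comparison 9 of 10 muscle markers were lower, with a median of -0.33, and 10 of 10 adipocyte markers were higher, with a median of 1.99, and their part in the synthetase values was not tested. The smallest p was that of Nars at -0.26 ± 0.09 (edgeR adjusted p = 0.292). Daily against weekly, 2 of 20 were higher, where 8.17% of all genes were called. These were Iars at 0.46 ± 0.12 and Mars at 0.37 ± 0.10 (edgeR adjusted p = 0.0291 and 0.0286), genes outside the naming rule and named after their values were seen. Iars was no longer called without male weekly replicate 3, male daily replicate 1 or 3, female weekly replicate 3 or female daily replicate 1, and Mars without male daily replicate 1 or 2 or female daily replicate 1.

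Of 12 other ATF4 partners and targets, 11 were tested and 0 passed with either regimen against vehicle. Atf5, a related factor that controls mitochondrial stress genes, had the smallest p with daily prednisone, at -0.25 ± 0.09 (edgeR adjusted p = 0.0706). It was lower in daily than in weekly mice, at 43.9 against 57 CPM (log2 fold change -0.37 ± 0.09, edgeR adjusted p = 0.0197), a direction opposite to that of Atf4. Daily males ran from 41.4 to 42.3 CPM and weekly males from 49.2 to 55.5, and daily females from 42.3 to 52.3 CPM and weekly females from 53.8 to 65.5, without overlap in either sex. Over all genes, 12.7% in males and 7.34% in females lay as completely below. The call was lost without male daily replicate 3 or female daily replicate 2, with fold changes between -0.42 and -0.34 over the 12 libraries left out in turn.

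Of 16 genes of the ATF6 and XBP1 branches of the unfolded protein response, 3 rose with daily prednisone, where 15% of all genes were called. Dnajb9, an endoplasmic reticulum co-chaperone, rose from 26.6 to 50.0 CPM (log2 fold change 0.91 ± 0.24, edgeR adjusted p = 0.0176). Ern1, which encodes the sensor IRE1α, rose from 8.58 to 11.5 CPM (0.45 ± 0.11, edgeR adjusted p = 0.0129). Sel1l, an adaptor of endoplasmic reticulum-associated degradation, rose from 48.1 to 58.8 CPM (0.30 ± 0.07, edgeR adjusted p = 0.00796). Every daily library of Sel1l lay above every vehicle library of its sex, from 60.7 to 65.0 against 50.2 to 53.7 CPM in males and from 54.5 to 56.4 against 39.9 to 47.5 in females. Over all genes, 16.4% in males and 12.9% in females lay as completely above. The list median was 0.04, and 13 of the 16 genes did not pass.

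Of 8 mitochondrial chaperone and protease genes, 1 rose and 1 fell with daily prednisone, where 15% of all genes were called. Yme1l1, an inner membrane protease, rose from 34.0 to 45.9 CPM (log2 fold change 0.43 ± 0.10, edgeR adjusted p = 0.00892). Hspe1, the small chaperonin of the matrix, fell by 0.42 on the log2 scale (SE 0.12, edgeR adjusted p = 0.0293), and it was not called once male vehicle replicate 1, male daily replicate 2, female vehicle replicate 2 or female daily replicate 2 was dropped. With weekly prednisone 0 of 16 unfolded protein response genes and 0 of 8 mitochondrial genes passed. With the adipocyte score as a covariate, where edgeR called 0 genes of 13596, none of the 10 list genes called for daily prednisone was called.

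For reference, of 10 known glucocorticoid receptor targets 2 rose with daily prednisone, where 15% of all genes were called. These were Klf9 at 0.61 ± 0.13 and Zbtb16 at 0.56 ± 0.15 (edgeR adjusted p = 0.00565 and 0.019). With weekly prednisone 0 of the 10 passed.

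**Figure D5:**
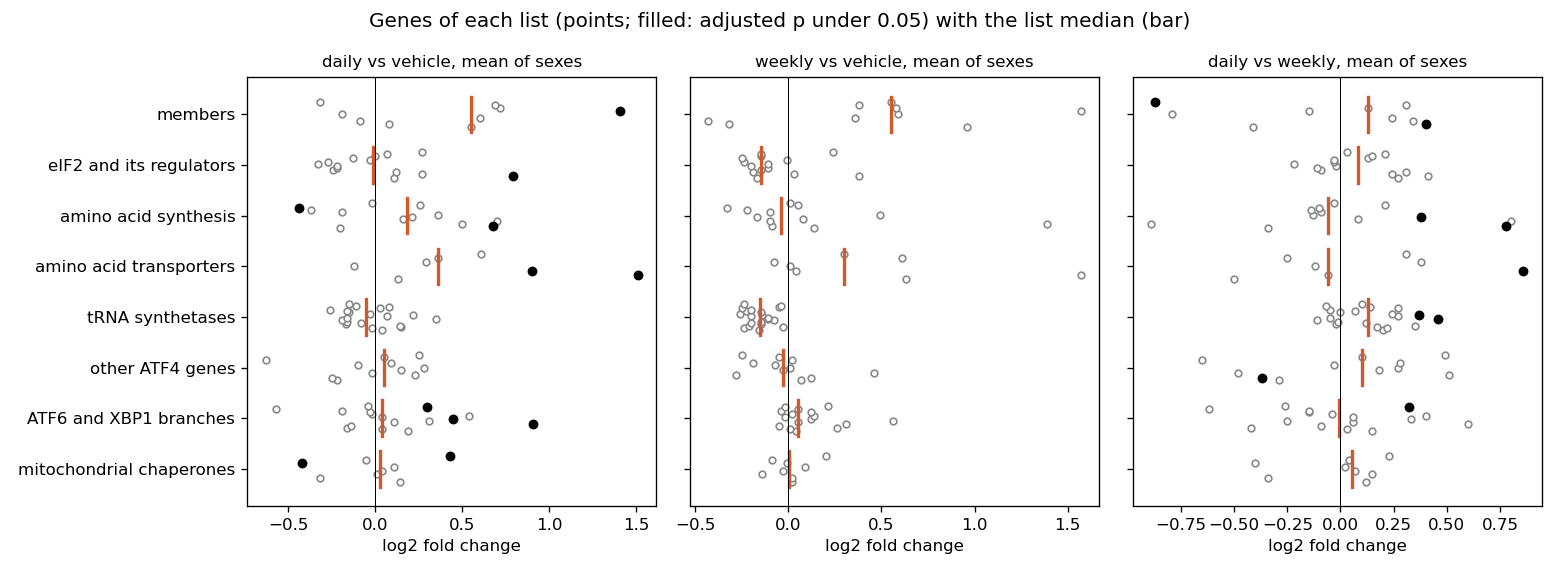
Fitted log2 fold change (x axis) of every tested gene of each list over both sexes in the 3 comparisons, filled points marking an adjusted p under 0.05 and orange bars the list medians. The tRNA synthetases lie left of 0 for weekly against vehicle, with 0 of 20 filled, and the filled point farthest right for daily against vehicle is Slc1a5 at 1.51.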

How the data were processed

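RNA was sequenced from isolated quadriceps myofibers, 1 library per mouse. The authors deposited one table of raw counts, reads per gene as whole numbers. According to the authors' methods, reads were aligned to mm10, and the submitters' processing notes name TopHat2 2.1.0, Bowtie2 2.2.6 and HTSeq, with mm9 listed beside mm10. The strand setting is not given in the sources used here. Of 43430 identifiers 42462 had a symbol, and the 968 others held at most 0.0814% of counts.

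Counts were scaled by TMM factors, filtered with filterByExpr (minimum count 10) and fitted in edgeR 4.0.16 (R 4.3.3, robust quasi-likelihood) with 6 group means over 18 libraries. P-values were adjusted by Benjamini-Hochberg over 13596 genes and called under 0.05. Intervals are 95% and SEs come from the F statistic. The alternatives included DESeq2 1.42.0 and limma-voom 3.58.1. Correlations used log2 CPM with a prior count of 2 and two-sided permutation tests with 100000 draws within groups. Promoter sequences are RefSeq's for GRCm38.p6.

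The members and lists were chosen with earlier results of these data known. Named list genes are those called against vehicle, at most 6 per list and comparison, or the smallest p where none was called, together with the 3 genes most correlated with each member. The immediate early list was added after the data were seen. No pair of replicates agreed within sampling noise. Deviations of same-numbered daily and weekly female libraries correlated at 0.439 to 0.501, so these were also fitted as pairs. The labels name no such pairs, and this fit was added after the data were seen. Other groups did not pair by number.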

Additional observations from a re-analysis of the deposited data

How the results depend on the processing

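The filter, the samples fitted and the count model changed few directions but several calls. The number of members called in daily against vehicle females was 1 with DESeq2 and 1 with both replicates 1 of treated females left out. Those fits called 530 and 642 of all genes, against 52 as reported. In daily against vehicle males 1 member was called when those groups were fitted alone, with 1530 of all genes called against 878. For daily against vehicle over both sexes the number of members called was 2 with the compared groups alone and 0 with the adipocyte score as a covariate. It was 4 with both replicates 1 left out, and 1 to 4 over single libraries left out. Of all genes, 0 were called with the covariate and 3077 with both replicates 1 left out, against 2033 as reported. For weekly against vehicle the number of members called was 1 with DESeq2 in females and 1 over both sexes, and 0 to 1 over single libraries in each. DESeq2 called 152 of all genes in those females and 183 over both sexes. For daily against weekly females the number of members called was 1 with the replicate block on those females, where 522 of all genes were called. Over single libraries it was 0 to 1. For daily against weekly over both sexes it was 1 with no filter and 1 with the stricter filter, which Trib3 did not pass. It was 0 with the compared groups alone, where 535 of all genes were called against 1111, and 0 to 2 over single libraries. The replicate block over all groups gave 1, as Trib3 kept -0.87 but was not called; it changed no other member's call.

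Signs that turned were all of values that were not called, except that of Slc1a5. With the adipocyte score as a covariate, Asns was -0.73 (daily) and -0.24 (weekly, and -0.27 in weekly females), Psat1 -0.01 and -0.05, Chac1 0.15 (daily), Sesn2 -0.26 (weekly) and Slc1a5 -0.24 (daily). With both replicates 1 left out, Chac1 was -0.08 for daily against weekly and Gdf15 0.05 for daily against vehicle, and limma-voom gave Gdf15 -0.03 for weekly against vehicle. Over single libraries left out, Chac1 ran from -0.50 to 0.16 for daily against vehicle and from -0.07 to 0.51 for daily against weekly, Gdf15 from -0.47 to 0.05 for daily against vehicle, and for daily against weekly Psat1 from -0.12 to 0.32 and Phgdh from -0.37 to 0.01. The cause of these turns was not tested.

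The number of all genes called ranged over the alternatives from 0 to 3077 (2033 as reported) for daily against vehicle over both sexes, from 17 to 1666 (878) in males and 0 to 642 (52) in females, and from 535 to 1811 (1111) for daily against weekly over both sexes. For weekly against vehicle it reached 183 over both sexes, 253 in females and 1 in males, for daily against weekly 546 in females and 242 in males, and for vehicle females against males 43 to 235 (104). The count of member pairs called stayed at 1 with a prior count of 0.5 and with DESeq2 size factors. Depth limits the low members: libraries held 9 to 42 reads of Trib3, 3 to 89 of Gdf15, 12 to 106 of Psat1, 16 to 183 of Asns and 17 to 186 of Phgdh.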
